A study of Drosophila melanogaster with 8 samples.

Results

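Glial marker genes are genes used to recognise the support cells of the fly nervous system, and 6 of them were followed across 3 Drosophila melanogaster cell lines: repo, moody, loco, Gs2, axo and wrapper. All probe sets that the platform annotation pairs with 1 of these symbols were taken, which gave 9 of the 13966 probe sets tested, with 3 for axo, 2 for loco and 1 for each other gene. The study made continuous lines from embryos that express RasV12, a form of the small GTPase Ras that stays active. RNA of the RasV12 line at passage 12 (3 arrays), of the L2 line (1 array) and of the CL8 line (4 arrays) was hybridised to Affymetrix DrosGenome1 arrays. All flasks were harvested at 70% confluence, 1 flask for each RNA. The labels name neither the driver of the RasV12 transgene nor the tissue of origin, the sex or the passage of L2 and CL8. Each group is 1 line, so the p-values cover the spread between flasks and arrays and not that between lines of a kind.

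Most glia of the fly embryo are specified by the transcription factor Gcm, which switches on repo, a homeodomain gene whose product is kept by nearly all lateral glia. Repo and its partners then turn on the genes that glia use for their work: insulating the nerve cord, wrapping axons and clearing transmitters. moody and loco act together in the surface glia of the blood-brain barrier, where Moody is a G protein coupled receptor and Loco a regulator of G protein signalling. Gs2 encodes a glutamine synthetase, the enzyme type that glia use to turn recovered glutamate into glutamine. axo encodes axotactin, a secreted protein of the neurexin superfamily made by glia, and wrapper encodes an immunoglobulin-type surface protein with which midline glia ensheathe commissural axons.

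The values are log2 expression values, and a value was read against 15 control probe sets for bacterial transcripts on the same array. A line counted as above background for a probe set if most of its arrays exceeded the highest of these controls. The top control lay between 3.24 and 3.45 in RasV12, at 3.83 in L2 and between 2.88 and 3.27 in CL8. Of the 6 genes, 5 were above background in RasV12, 3 in L2 and 4 in CL8, on at least 1 probe set. For all genes on their brightest probe set, the share above background was 67.9% in RasV12, 69.0% in L2 and 71.6% in CL8. Because the arrays do not share 1 distribution, each difference is also given after quantile normalization of all arrays, called rescaled. Over all probe sets, the median difference shifted on rescaling by 0.13 for RasV12 minus CL8, by 0.38 for RasV12 minus L2 and by -0.26 for L2 minus CL8. The deposited values have a median of 14 decimals for RasV12 and 9 for L2 and CL8, so a separate processing run of RasV12 and a difference of that line cannot be told apart.

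**Figure D1:**
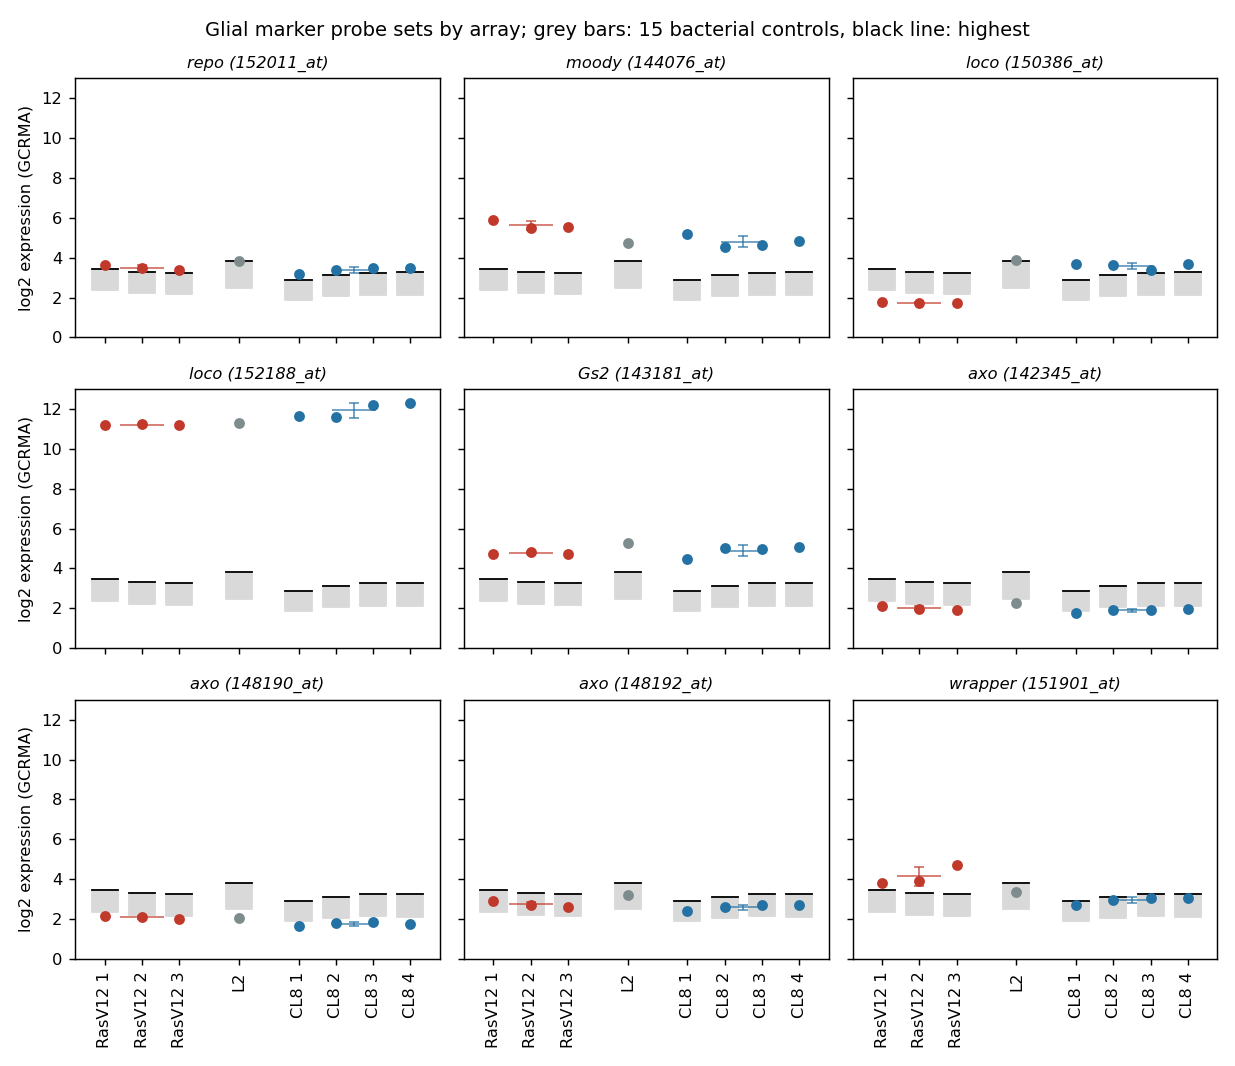
Log2 expression of the 9 glial marker probe sets (vertical axis, GCRMA values) on each RasV12, L2 and CL8 array (horizontal axis). Points are arrays, coloured dashes with bars the mean ± SD of RasV12 (n = 3) and CL8 (n = 4), grey boxes the span of the 15 bacterial controls and black lines their highest value. loco 152188_at lies far above the controls on all arrays, moody and Gs2 lie above them, wrapper exceeds them on the RasV12 arrays only, repo lies near their highest value on all arrays, and axo lies below it.

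repo, the glial homeodomain gene that defines the list, read at the upper edge of the bacterial controls in every line. It had 3.65, 3.48 and 3.36 on the RasV12 arrays, 3.82 on the L2 array and 3.17, 3.40, 3.46 and 3.50 on the CL8 arrays. The arrays of RasV12 and CL8 overlapped, and the L2 array was highest and CL8 array 1 lowest, as for the controls. repo exceeded the highest control of its array by 0.12 to 0.20 on the RasV12 arrays, lay 0.014 below it on the L2 array and exceeded it by 0.21 to 0.29 on the CL8 arrays. Against the median control it was 0.48 to 0.64 higher on all 8 arrays. Centred on the mean of the lines, repo departed from the mean course of the 15 controls by a root mean square of 0.045 over the 8 arrays, and 4.27% of all tested probe sets lay closer to that course.

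Differences in repo between lines were small, and those that involve L2 turned with the scaling. RasV12 minus CL8 was 0.11 ± 0.11 on the log2 scale (SE; limma adjusted p = 0.419), and 0.15 rescaled (limma adjusted p = 0.00476), called only when rescaled. As deposited, the mean of the bacterial controls was 0.15 higher in RasV12 than in CL8, more than the 0.11 of repo. Measured from the highest control of each array, repo stood lower on the RasV12 arrays than on the CL8 arrays. L2 minus CL8 was 0.43 ± 0.16 (limma adjusted p = 0.0474) as deposited and -0.10 rescaled (limma adjusted p = 0.110). The mean of the bacterial controls itself was 0.54 higher in L2 than in CL8, more than the 0.43 of repo. No direction for repo is therefore given, neither between RasV12 and CL8 nor between L2 and CL8.

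axo, for the secreted neurexin-type protein axotactin, did not exceed the highest control on any array with any of its 3 probe sets. 148192_at read 2.88, 2.68 and 2.62 in RasV12, 3.20 in L2 and 2.40, 2.602, 2.69 and 2.68 in CL8. It stayed 0.13 to 0.19 below the median control, and 1.44% of tested probe sets lay closer to the course of the controls. 142345_at ranged from 1.92 to 2.11 in RasV12, read 2.24 in L2 and ranged from 1.78 to 1.94 in CL8. 148190_at had 2.17, 2.08 and 2.01 in RasV12, 2.05 in L2 and 1.63, 1.79, 1.83 and 1.73 in CL8, and its RasV12 arrays did not overlap with CL8. On that probe set RasV12 minus CL8 was 0.34 ± 0.083 (SE; limma adjusted p = 0.00906; 0.32 rescaled), a difference between values that lie 1.21 to 1.28 below the highest control in RasV12 and 1.25 to 1.54 below it in CL8. RefSeq joins 5 older locus tags and lists 7 transcripts under axo, and the sources used here do not say which of these a probe set covers.

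**Figure D2:**
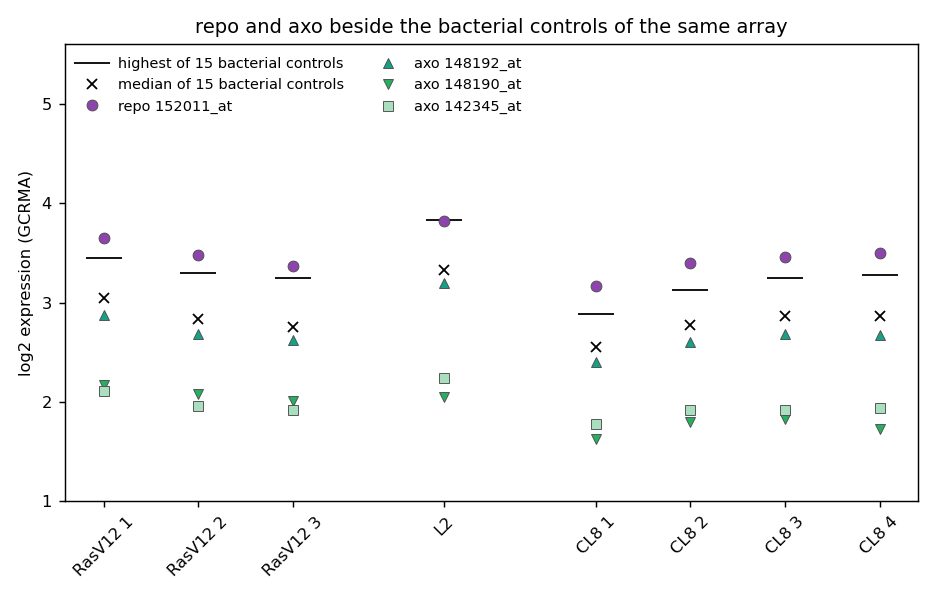
Log2 expression of repo and of the 3 axo probe sets (vertical axis) on the RasV12, L2 and CL8 arrays (horizontal axis), beside the highest (dash) and the median (cross) of the 15 bacterial controls of the same array. repo follows the highest control from array to array, between 0.014 below and 0.285 above it, and axo 148192_at runs just under the median control.

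moody, the receptor of the surface glia, was measured in all lines and was higher in RasV12. It read 5.89, 5.48 and 5.53 on the RasV12 arrays, 4.72 on the L2 array and 5.18, 4.55, 4.65 and 4.83 on the CL8 arrays. All RasV12 arrays lay above all others, and L2 fell inside the range of CL8. The difference of RasV12 minus CL8 was 0.83 ± 0.17 (SE; limma adjusted p = 0.00366), a 1.78-fold higher value, and 1.08 rescaled. RasV12 minus L2 was 0.91 ± 0.26 (limma adjusted p = 0.0199) and 1.79 rescaled, where L2 is a lone array assumed to vary like the other lines. L2 minus CL8 was -0.08 ± 0.25 (limma adjusted p = 0.773) and -0.71 rescaled (limma adjusted p = 0.0774). Leaving out any array of RasV12 or CL8 kept RasV12 minus CL8 between 0.70 and 0.96. Of all tested probe sets, including those not above background, 67.8% had a smaller absolute difference between RasV12 and CL8. In these bulk samples, more cells that express a gene and more of its RNA per cell cannot be told apart.

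loco, the regulator of G protein signalling that acts with Moody, gave the highest readings of the list and differed between its probe sets. On 152188_at it had 11.22, 11.23 and 11.18 in RasV12, 11.28 in L2 and 11.63, 11.61, 12.20 and 12.30 in CL8. RasV12 and L2 lay together, and all CL8 arrays were above them, with CL8 arrays 3 and 4 highest. The difference of RasV12 minus CL8 was -0.73 ± 0.19 (SE; limma adjusted p = 0.0117) as deposited but 0.01 rescaled (limma adjusted p = 0.973), while centring each array on its median gave -0.66 (limma adjusted p = 0.00862), so this direction and call were lost under quantile normalization but not under median centring. Without CL8 arrays 3 and 4 the difference was -0.41, and without CL8 arrays 1 and 2 it was -1.04. A control for the middle of 18S ribosomal RNA was brighter on CL8 arrays 3 and 4 (15.3 and 14.5) than on CL8 arrays 1 and 2 (10.1 and 9.501), and its part in the result was not tested. L2 minus CL8 was -0.66 ± 0.27 (limma adjusted p = 0.0657; -0.05 rescaled), but -1.33 with median centring (limma adjusted p = 0.00291), and it also passed without CL8 array 1 (-0.76, limma adjusted p = 0.0386) or 2 (-0.77, limma adjusted p = 0.0364). RasV12 minus L2 was -0.07 ± 0.28 (limma adjusted p = 0.844; 0.06 rescaled).

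The other loco probe set, 150386_at, was low and separated RasV12 from the other lines in both scalings. It read 1.78, 1.73 and 1.72 on the RasV12 arrays, 3.86 on the L2 array and 3.68, 3.65, 3.38 and 3.68 on the CL8 arrays. The RasV12 values lay below the lowest bacterial control of their arrays, while L2 was 0.033 and CL8 0.13 to 0.79 above the highest one. RasV12 minus CL8 was -1.85 ± 0.097 (SE; limma adjusted p = 1.99e-06) and -1.90 rescaled, and RasV12 minus L2 was -2.12 ± 0.15 (limma adjusted p = 3.2e-05) and -1.62 rescaled. Since RasV12 was not above background there, only a bound can be given for the fold, and RasV12 was at least 1.205-fold lower than CL8 and at least 1.45-fold lower than L2. RefSeq lists 5 loco transcripts, and the sources used here do not say which of them each probe set covers. The 2 probe sets thus give no common size for loco, one far above the controls in all lines and the other near or below them.

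Gs2, the glutamine synthetase gene, was above the controls in all lines and showed no called difference. It had 4.72, 4.83 and 4.73 in RasV12, 5.28 in L2 and 4.47, 5.03, 4.99 and 5.09 in CL8. The RasV12 arrays lay inside the range of CL8, which CL8 array 1 widens at its low end, and L2 lay above both. Gs2 exceeded the highest control by 1.28 to 1.91 on the 8 arrays. For Gs2, RasV12 minus CL8 was -0.14 ± 0.15 (SE; limma adjusted p = 0.480; -0.02 rescaled), L2 minus CL8 0.39 ± 0.22 (limma adjusted p = 0.157; -0.18 rescaled) and RasV12 minus L2 -0.52 ± 0.23 (limma adjusted p = 0.0875; 0.16 rescaled). Without CL8 array 1, RasV12 minus CL8 was -0.28 (limma adjusted p = 0.0152), and RasV12 minus L2, at -0.52, then also passed (limma adjusted p = 0.00518). In the deposited values both calls thus changed with that array. Rescaled with all arrays, RasV12 minus CL8 did not pass (limma adjusted p = 0.904), and RasV12 minus L2 had the opposite sign, at 0.16.

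wrapper, the surface protein gene of midline glia, was above background in RasV12 only. It read 3.81, 3.93 and 4.70 on the RasV12 arrays, 3.35 on the L2 array and 2.72, 2.97, 3.06 and 3.04 on the CL8 arrays. All RasV12 arrays lay above L2 and CL8, and RasV12 array 3 stood above the other RasV12 arrays. They exceeded the highest control of their arrays by 0.36, 0.64 and 1.46, while L2 was 0.48 below it and the CL8 arrays 0.16 to 0.23 below it. For wrapper, RasV12 minus CL8 was 1.20 ± 0.21 (SE; limma adjusted p = 0.00165) and 1.25 rescaled, which with CL8 not above background is at least 2.02-fold higher. It was 0.92 (limma adjusted p = 0.000869) without RasV12 array 3. Against L2, RasV12 was higher by 0.80 ± 0.32 without passing the test (limma adjusted p = 0.0673), and by 1.32 rescaled (limma adjusted p = 0.0363), at least 1.245-fold. L2 minus CL8 was 0.40 ± 0.31 (limma adjusted p = 0.275; -0.07 rescaled).

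**Figure D3:**
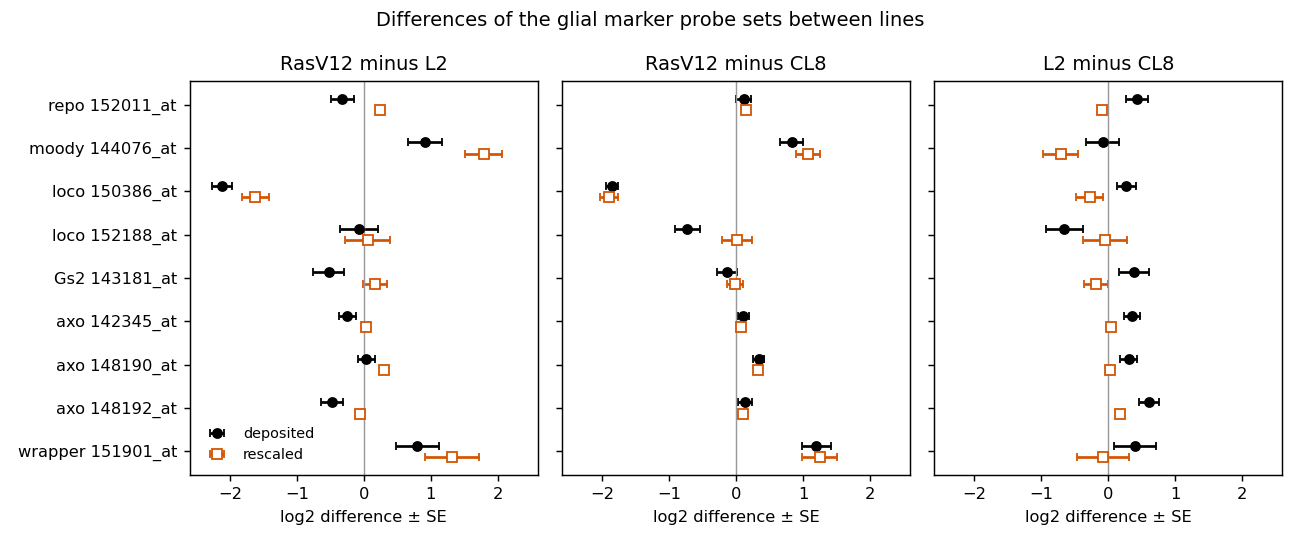
Log2 differences with their SE (horizontal axis) of the 9 glial marker probe sets (rows) for RasV12 minus L2, RasV12 minus CL8 and L2 minus CL8, on deposited (filled circles) and rescaled values (open squares). moody and wrapper are positive and loco 150386_at negative in RasV12 minus CL8 in both scalings, while loco 152188_at is at -0.73 as deposited and 0.01 rescaled, and most of the differences that involve L2 shift with the scaling.

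The calls across the 9 probe sets are set here beside those of the array as a whole. In RasV12 minus CL8, limma called 3 higher and 2 lower, against 11.3% higher and 38.6% lower of all probe sets (49.9% in all). Rescaled, 6 were higher and 1 lower, against 35.4% and 29.8%. Of the 3 higher as deposited, axo 148190_at was above background in no line. The 6 higher when rescaled include all 3 axo probe sets, above background in no line, and repo, at the upper edge of the controls. The RasV12 and CL8 arrays did not overlap for 5 of the 9 probe sets, against 56.6% of all. The median difference of the 9 was 0.11 (0.11 rescaled), and that of all probe sets was -0.08 (0.05 rescaled). In RasV12 minus L2, 1 was higher and 2 lower, against 9.57% and 44.1% of all probe sets, and rescaled 4 were higher and 1 lower, against 22.0% and 26.0%. The 2 lower include axo 148192_at, and the 4 higher when rescaled include axo 148190_at and repo. In L2 minus CL8, 3 were higher and 0 lower, against 38.3% and 23.6%, and these 3 were repo and 2 axo probe sets, none above background in L2. Rescaled, 1 of them, axo 148192_at, was called higher and 0 probe sets lower, against 20.2% and 17.4% of all. The comparisons share arrays, so their calls are not independent of each other.

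Genes with the most similar pattern over the 8 arrays were taken by the smallest root mean square difference after centring on the mean of the lines, among 8804 named probe sets above background in some line. For repo these were CG5665 (0.017) and ham (0.019), a transcription factor gene, whose values also rise and fall with the controls. For wrapper they were shg (0.14), which encodes E-cadherin, and CG1722 (0.17), with RasV12 minus CL8 at 1.11 for each. For moody they were CG7646 (0.17) and Ras64B (0.17), a GTPase gene of the Ras family. For loco 152188_at they were CG7791 (0.079) and Pex3 (0.10), a peroxisome gene, and for Gs2 mbl (0.11), a splicing factor gene, and CARPA (0.11).

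Most genes listed for glial fate and glial transcription were not above background in RasV12. Of 7 measured (gcm, gcm2, naz, pros, ct, vvl and Dr), 2 were above background in RasV12, 4 in L2 and 3 in CL8. The listed pnt and ttk matched no probe set. gcm, the switch of glial fate that hemocytes also use, read 3.40, 3.17 and 3.12 in RasV12, 4.63 in L2 and 3.26, 3.44, 3.53 and 3.38 in CL8. The L2 array was above all others, and RasV12 and CL8 overlapped. L2 minus CL8 was 1.23 for gcm (limma adjusted p = 0.000514; 0.56 rescaled), while RasV12 minus CL8 was -0.17 (limma adjusted p = 0.209), and -0.17 rescaled (limma adjusted p = 0.0161). Between RasV12 and CL8, limma called 0 of the 7 genes (1 at an unadjusted p under 0.05), against 52.6% of all genes, and 1 higher and 3 lower when rescaled. In L2 minus CL8 it called 6 higher and 0 lower (2 and 0 rescaled), against 37.3% and 26.7% of all genes (20.1% and 18.6% rescaled). Among the 6, naz and vvl were above background in no line, and the 2 called when rescaled were gcm and naz. The mean of the bacterial controls was itself 0.54 higher in L2 than in CL8. The repo gene itself, which Gcm activates in the embryo, was at the controls in L2.

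Around moody and loco, the G protein genes were measured in all lines, and Galphai was lower in RasV12 and in L2 than in CL8. Galphai, the inhibitory alpha subunit whose signal Loco curbs, had 10.77, 10.78 and 10.82 in RasV12, 10.83 in L2 and 12.53, 12.42, 12.54 and 12.79 in CL8 on its brighter probe set. RasV12 minus CL8 was -1.78 (limma adjusted p = 2.71e-06; -1.04 rescaled) and L2 minus CL8 was -1.74 (limma adjusted p = 8.69e-05; -1.16 rescaled). Its other probe set did not pass between RasV12 and CL8 (-0.05, and 0.20 rescaled), so the lower value holds for 1 of 2 probe sets. RSG7, another regulator of G protein signalling, was not above background in RasV12, at least 1.43-fold lower than CL8. The measured difference was -0.82 (limma adjusted p = 0.0146; -0.83 rescaled), and -0.51 without CL8 arrays 3 and 4. Axn, a scaffold of Wnt signalling that carries an RGS domain, was higher in RasV12 by 0.55 (limma adjusted p = 0.00416; 1.37 rescaled). Of 8 genes of this group, 1 was higher and 3 lower than in CL8 (2 and 2 rescaled), against 10.9% and 41.8% of all genes (34.8% and 31.5% rescaled), with 5 listed genes unmatched, among them Gbeta13F and Ggamma1.

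Genes of the barrier that moody serves were split, with more calls on the high side in RasV12. Of 17 genes of septate junctions and the glial barrier, 8 were higher and 3 lower in RasV12 than in CL8. They kept these directions when rescaled, with 13 higher and 3 lower in all. Among the lower, vari was above background in no line, as was bark, called higher only when rescaled. The shares of all genes were 10.9% higher and 41.8% lower (34.8% and 31.5% rescaled). The median difference was 0.36 (1.18 rescaled), while that of all genes was -0.14 (0.04 rescaled). Nrg, neuroglian, an adhesion protein of neurons, glia and septate junctions, had 12.58, 12.60 and 12.23 in RasV12, 9.08 in L2 and 11.11, 10.60, 11.08 and 11.02 in CL8. The lines did not overlap in Nrg, and RasV12 minus CL8 was 1.52 (limma adjusted p = 6.39e-05; 2.27 rescaled), while L2 minus CL8 was -1.87 (limma adjusted p = 0.000491; -1.19 rescaled). Lac, Gli and bou, all junction genes, differed by 4.51, 2.40 and -4.84 between RasV12 and CL8 (5.22, 3.17 and -4.33 rescaled). These genes serve epithelia as well as glia. Lac differed by 3.78 without CL8 arrays 1 and 2 and by 5.24 without CL8 arrays 3 and 4. Mdr65, a transporter of the glial barrier, was above background in no line.

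Among transmitter genes, Gs1 parted from Gs2. Gs1, the other glutamine synthetase gene, had 5.35, 4.72 and 4.68 in RasV12, 8.16 in L2 and 11.12, 11.03, 10.14 and 9.96 in CL8. The lines did not overlap, and the order ran from RasV12 over L2 to CL8 at the top. RasV12 minus CL8 was -5.64 (limma adjusted p = 3.14e-06; -5.07 rescaled), RasV12 minus L2 was -3.24 (limma adjusted p = 0.0014; -3.30 rescaled), and L2 minus CL8 was -2.40 (limma adjusted p = 0.00483; -1.77 rescaled). NKCC, a chloride cotransporter gene, was above background in RasV12, at 6.90 ± 0.37 (SD, n = 3), and not above background in L2 and CL8, at least 13.6-fold higher than CL8. gb, genderblind, a glial exchanger of cystine and glutamate, differed by -2.01 from CL8 (limma adjusted p = 6.74e-05; -1.17 rescaled). Of 12 genes measured, 2 were higher and 4 lower in RasV12 than in CL8 (7 and 3 rescaled), against 10.9% and 41.8% of all genes (34.8% and 31.5% rescaled). Of the 2 higher, e was above background in no line. Nor were Ntl and Gad1 (higher) and Gat (lower), which were called only when rescaled. kcc was called lower as deposited (-0.47) but higher when rescaled (0.36). Gdh, called lower at -0.63, was not called when rescaled (0.11). The glutamate transporter gene Eaat1, a common astrocyte marker, matched no probe set. ine, a transporter gene named here after its values were seen, read 7.96 in L2 and was not above background in RasV12 and CL8.

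Adhesion and engulfment genes that glia share with other cells were called in both directions. Of 15 adhesion and signalling genes, 5 were higher and 5 lower in RasV12 than in CL8 (7 and 4 rescaled), against 10.9% and 41.8% of all genes (34.8% and 31.5% rescaled). Nrt, a neuronal adhesion protein, was higher by 7.17 (7.61 rescaled) on its brightest probe set and by 2.19 (2.51 rescaled) on the other. Its soluble ligand gene Ama differed by -6.26 (-5.57 rescaled), and htl, an FGF receptor of mesoderm and some glia, was higher by 6.15 (6.57 rescaled). para, the gene of the voltage-gated sodium channel of neurons, was above background in no line. Of 6 engulfment genes, 2 were higher and 3 lower (2 and 1 rescaled), beside the same shares of all genes. drpr, the receptor with which glia and hemocytes take up debris, was higher in RasV12 by 2.28 (limma adjusted p = 5.37e-07; 3.05 rescaled), while ced-6, for the adaptor that binds it, differed by -3.90 (limma adjusted p = 3.67e-07; -3.10 rescaled).

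**Figure D4:**
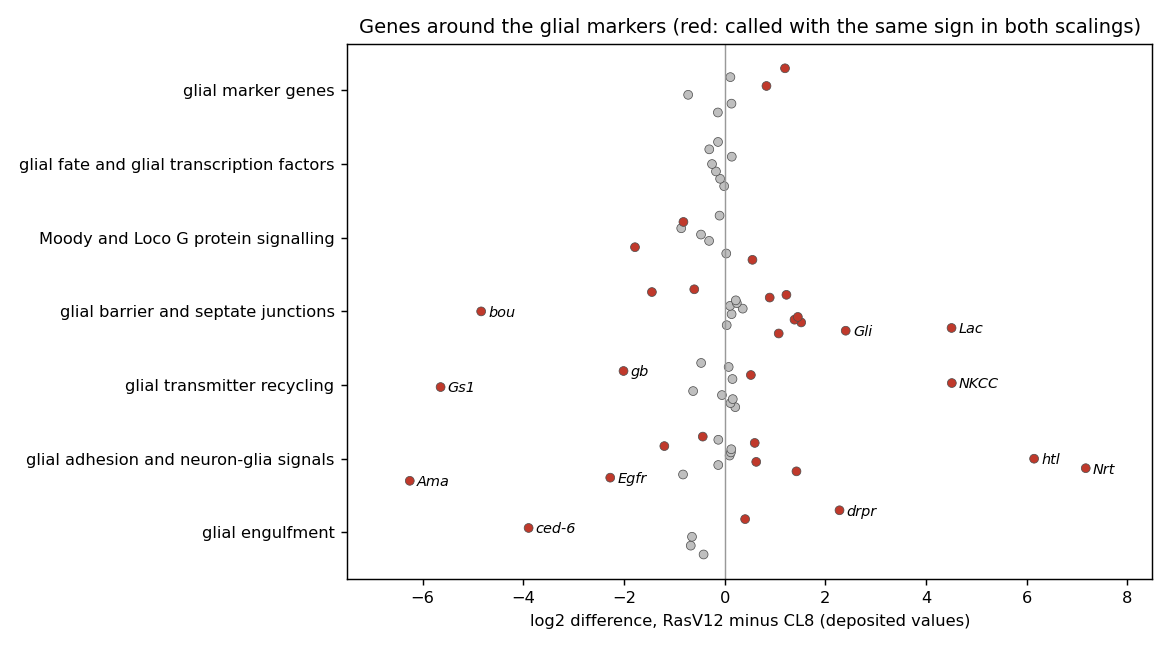
Log2 difference of RasV12 minus CL8 on deposited values (horizontal axis) for each measured gene of the glial markers and 6 related groups (rows), 1 point per gene on its brightest probe set. Red points were called by limma with the same sign in both scalings and genes beyond 2 are named. The glial markers lie between -0.73 and 1.20, while Gs1, Ama and bou on the low side and Nrt, htl, Lac and NKCC on the high side lie beyond 4.

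Markers of other cell types moved beside the glial genes, and their part in these results was not tested. Of 12 neuronal genes measured, 9 were above background in RasV12, 10 in L2 and 9 in CL8, with 3 higher and 2 lower in RasV12 than in CL8 (6 and 2 rescaled), against 10.9% and 41.8% of all genes (34.8% and 31.5% rescaled). elav, the RNA-binding protein that defines neurons, had 7.36, 7.74 and 7.29 in RasV12, 7.35 in L2 and 4.11, 5.21, 6.74 and 6.46 in CL8. For elav, RasV12 minus CL8 was 1.83 (limma adjusted p = 0.0313; 2.28 rescaled), and 0.86 without CL8 arrays 1 and 2. nSyb and VGlut, genes of synaptic vesicles, were above background in no line. Yet nSyb is among the 3 neuronal genes called higher, and both are among the 6 called higher when rescaled. Of 15 hemocyte genes, 14 were above background in each line. Of the 15, 6 were higher and 8 lower in RasV12 than in CL8 (7 and 7 rescaled), against 10.9% and 41.8% of all genes (34.8% and 31.5% rescaled). PPO3, among the higher, was above background in no line. Of 9 mesoderm and muscle genes, 4 were above background in RasV12, 4 in L2 and 3 in CL8. Beside the same shares of all genes, 4 were higher and 0 lower in RasV12 (4 at an unadjusted p under 0.05; 4 and 1 rescaled). lmd, called lower only when rescaled, was above background in no line. Of 12 genes of wing disc epithelium, 11 were above background in RasV12, 11 in L2 and 12 in CL8, against 67.9%, 69.0% and 71.6% of all genes. Of these 12, 2 were higher and 6 lower in RasV12 than in CL8 (2 and 6 rescaled), against 10.9% and 41.8% of all genes (34.8% and 31.5% rescaled). Fat body and trachea lists had 2 of 4 and 2 of 5 genes above background in RasV12, 2 and 1 in L2, and 3 and 1 in CL8. The shares of all genes were again 67.9%, 69.0% and 71.6%. Averaged over the measured genes, the neuronal list read 4.89 to 5.17 on the RasV12 arrays, 5.71 in L2 and 4.53 to 5.002 in CL8. In the same order of lines, the hemocyte list read 6.61 to 6.78, 8.61 and 8.05 to 8.24. The mesoderm and muscle list read 5.059 to 5.255, 4.069 and 2.903 to 3.233, and the wing disc list 5.044 to 5.295, 5.753 and 6.031 to 6.147. Fat body read 3.196 to 3.347, 4.484 and 2.902 to 3.332, and trachea 4.125 to 4.297, 3.541 and 2.857 to 3.046. Differences between lines in some of these averages rest largely on a single gene. btl of trachea read 9.35 in RasV12, 3.26 in L2 and 2.88 in CL8. In the same order, apolpp of fat body read 3.46, 7.70 and 3.61, and PPO1 of hemocytes 3.62, 11.28 and 4.31. The averages also take in genes above background in no line, among them pio, Gasp and vvl of trachea.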

How the data were processed

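Total RNA of 8 flasks was hybridised to DrosGenome1 arrays. Per the series' design text, the authors computed expression values with GCRMA. The deposited values are log2, taken from that method and their range, and the sources used here do not say whether all arrays passed through 1 run. Tests covered 13966 probe sets and left out 44 controls. Names came from the platform annotation, updated through gene identifiers to RefSeq symbols (Release 6 plus ISO1 MT). A single gene was paired with 12443 of them, several with 327 and none with 1196, giving 10844 genes, and 49 kept the platform's symbol. A gene stands by its brightest probe set.

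One limma 3.58.1 fit (R 4.3.3) of all 8 arrays gave the 3 comparisons, as the design text names limma. P-values were adjusted by Benjamini-Hochberg over all tested probe sets, with a threshold of 0.05. The number of arrays limits the precision (median SE 0.114 for RasV12 minus CL8, 0.167 for L2 minus CL8, 0.172 for RasV12 minus L2). The fit was tested on simulated data.

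The glial genes and the related lists were chosen with earlier results of these data known. Within lists, the named genes are up to 3 with the largest difference of RasV12 minus CL8, if called with the same sign in both scalings and above background in a line, plus gcm, Nrg, Eaat1, drpr, elav and Gs1. Some listed genes were named after their values were seen. They were pnt, ttk, gcm2, naz, pros, ct, vvl, Dr, Mdr65, vari, bark, e, Ntl, Gad1, Gat, kcc, Gdh, para, nSyb, VGlut, ine, PPO1, PPO3, lmd, apolpp, pio and Gasp. A fold against a line not above background is a bound: the brighter line's mean over the dimmer line's, in which each array counts at no less than its highest control. Alternatives were quantile normalization, centring on each array's median, a filter on dim probe sets, a trended prior, arrays left out, a replicate block and other control limits.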

Additional observations from a re-analysis of the deposited data

Results flagged for a closer look

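In CL8, 7 of 40 probe sets named had 1 array far from the other 3. The rule flags about 1 in 20 independent groups by chance. These probe sets share the same 4 arrays, so their flags are not independent and the number is not compared with that rate. CL8 array 3 read 3.377 for loco 150386_at, against 3.648 to 3.684 on the others. CL8 array 1 was low for Gs2, at 4.471 against 4.993 to 5.093, for axo 142345_at, at 1.782 against 1.916 to 1.937, and for bou, at 8.65 against 9.296 to 9.429. It was also low for kirre, at 2.194 against 2.347 to 2.374, and for Fbp1, at 3.008 against 3.36 to 3.387. On CL8 array 2, twi read 3.201 against 2.676 to 2.714. Of these, axo 142345_at, kirre and twi were not above background in CL8. The highest bacterial control was 2.88 on CL8 array 1 and 3.12 to 3.27 on the other CL8 arrays, and its part in these values was not tested.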

How the results depend on the processing

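Only moody and wrapper (higher in RasV12) and loco 150386_at (lower in RasV12) kept a call between RasV12 and CL8 with either scaling among the genes above background in some line, and each of these differences kept its sign under every alternative run. Values against L2 rest on 1 array. Of the differences of glial probe sets recomputed under an alternative, 293 kept direction and side of the threshold, 23 passed it and 20 missed it against the deposited values, and 24 turned. Causes were not tested.

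Glial probe sets called in RasV12 minus CL8 were 5 as deposited, 8 with each array centred on its median, and 5 to 6 with 1 array left out. In L2 minus CL8, 3 were called, against 1 after quantile normalization, 0 among probe sets above the controls, 5 with a trended prior and 1 to 4 with 1 array left out. In RasV12 minus L2, 3 were called, against 5 after quantile normalization, 8 with median centring, 5 with a trended prior and 2 to 4 with 1 array left out. All probe sets called in L2 minus CL8 fell to 5245 after quantile normalization, against 8636 as deposited.

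Quantile normalization turned loco 152188_at to 0.0092 in RasV12 minus CL8. In L2 minus CL8 it turned repo to -0.10, loco 150386_at to -0.28, Gs2 to -0.18 and wrapper to -0.074, and in RasV12 minus L2 repo to 0.24, loco 152188_at to 0.057, Gs2 to 0.16 and axo 142345_at to 0.036. Median centring turned, in L2 minus CL8, repo to -0.24, loco 150386_at to -0.40, Gs2 to -0.28, axo 142345_at to -0.32, axo 148190_at to -0.37, axo 148192_at to -0.061 and wrapper to -0.27. In RasV12 minus L2 it turned repo to 0.41, loco 152188_at to 0.66, Gs2 to 0.21, axo 142345_at to 0.49 and axo 148192_at to 0.26. Without CL8 arrays 3 and 4, Gs2 was 0.01002 in RasV12 minus CL8. With 1 array left out, moody spanned -0.17 to 0.041 in L2 minus CL8 and axo 148190_at -0.0023 to 0.077 in RasV12 minus L2.

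Quantile normalization was an alternative chosen after seeing the data. Genes called in related lists after it were 4 against 0 for glial fate genes and 10 against 6 for transmitter genes. They were 3 against 5 for engulfment, 8 against 5 for neurons, 3 against 1 for fat body and 2 against 1 for trachea. The mean of a gene's probe sets gave 2 for fat body. Limits from 23 controls, with mouse and yeast ones added after seeing the data, left the counts of genes above background as they were, while the second highest control gave 4 genes in L2.

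The replicate numbers of RasV12 and CL8 did not pair the arrays: same-numbered arrays had correlated deviations of -0.245, -0.098 and -0.088. With the number as a replicate block, 4 glial probe sets were called, and axo 148190_at, at 0.34, was not (limma adjusted p = 0.146).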
